A study of Mus musculus with 6 samples.

Results

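The liver of the fasted wild-type mouse was described from 3 arrays, those titled as wild-type liver 1 to 3, out of 6 in the series. They were chosen by title alone. Each array carried RNA from the liver of 1 male C57BL/6 mouse that had eaten normal chow before a fast of 24 h. The other 3 arrays came from fasted mice deficient in Creb3l3, littermates were used, and those arrays entered no comparison here. The platform was the Illumina WG-6 bead array with 45281 probes, which stood for 28908 gene names, and each mouse had 1 array. Animal and array variation therefore cannot be told apart. All samples were fasted, so the levels are those of a fasted liver and not responses to fasting.

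Hepatocytes make most plasma proteins, dispose of amino nitrogen through the urea cycle, and clear foreign compounds with cytochrome P450 enzymes and transferases. During a fast the liver releases glucose made by gluconeogenesis, burns fatty acids in mitochondria and peroxisomes and exports ketone bodies. The nuclear receptor PPARA, activated by fatty acids, drives many genes of fatty acid use, and CREBH, the product of Creb3l3, is a factor anchored in the endoplasmic reticulum that acts on triglyceride metabolism. In rodents many liver genes also differ between the sexes, a pattern set by how growth hormone is released over the day.

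The deposited signal is the mean brightness of the beads of a probe, in arbitrary units. A probe was called detected on an array when its detection p, the array software's measure of whether it stood above negative control beads, was under 0.05. The arrays of mouse 1, mouse 2 and mouse 3 had 16224, 15832 and 15504 detected probes, where chance would give 2264.1 on each. Mean signals were 252, 219.7 and 219, so the array of mouse 1 was the brightest. On all 3 arrays 13064 probes were detected (28.9%), on 2 arrays 1899, on 1 array 4570 and on none 25748. Taking each gene name by its best probe, 9253 were detected on all 3 arrays (32.0% of those present) and 15238 on none. Missing detection is a statement about a probe and not about a gene. Of 4975 genes with several probes of which at least 1 was detected on all 3 arrays, 2512 (50.5%) had another probe that was detected on none. Below, values are normalized log2 signals, given as mean ± SD over n = 3 mice, unless called signals. A gene is represented by its brightest probe, and values of single mice are in the order 1, 2, 3. In the authors' table of normalized values the columns named for mice 2 and 3 were exchanged relative to the array files, matching them crosswise to within 0.00263 log2 units. Which source carries the right label cannot be settled from the files, so the numbers of mice 2 and 3, which follow the array files here, may be exchanged.

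The sequences upstream of 6 genes with very high signals or a large spread between mice are shown first. Each is the 250 bases before the annotated start, 5′ to 3′, from RefSeq on build GRCm38.p6. Capitals mark CCAAT, a box bound by NF-Y, and TATAAA, the TATA box, on either strand, so that ATTGG is CCAAT read on the opposite strand. The first 4 belong to Serpina1 genes, which encode alpha-1-antitrypsins and lie on the minus strand of chromosome 12. They are shown because these near-copies were all among the 25 brightest genes yet differed in how far their deposited signals spread between mice.
Serpina1b at chr12:103738190-103738439: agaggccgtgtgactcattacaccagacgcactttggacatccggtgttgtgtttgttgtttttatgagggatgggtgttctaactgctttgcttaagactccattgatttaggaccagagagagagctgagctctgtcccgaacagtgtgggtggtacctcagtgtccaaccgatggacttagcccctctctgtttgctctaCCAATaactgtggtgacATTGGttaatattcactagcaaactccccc
Serpina1d at chr12:103773634-103773883: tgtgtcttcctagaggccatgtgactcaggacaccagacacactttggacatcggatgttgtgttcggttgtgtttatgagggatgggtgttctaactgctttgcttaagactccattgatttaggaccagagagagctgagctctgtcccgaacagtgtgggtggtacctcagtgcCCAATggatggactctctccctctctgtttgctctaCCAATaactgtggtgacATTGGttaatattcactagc
Serpina1c at chr12:103904951-103905200: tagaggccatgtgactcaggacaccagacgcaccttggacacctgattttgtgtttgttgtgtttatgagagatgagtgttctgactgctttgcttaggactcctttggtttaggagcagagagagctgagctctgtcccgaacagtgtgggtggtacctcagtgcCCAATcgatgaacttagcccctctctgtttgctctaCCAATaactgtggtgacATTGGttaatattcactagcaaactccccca
Serpina1e at chr12:103956898-103957147: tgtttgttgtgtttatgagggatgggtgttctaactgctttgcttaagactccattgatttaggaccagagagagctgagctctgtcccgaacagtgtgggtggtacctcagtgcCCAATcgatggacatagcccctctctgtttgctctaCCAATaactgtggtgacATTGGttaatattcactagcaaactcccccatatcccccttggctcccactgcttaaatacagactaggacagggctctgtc
Cyp2e1, the P450 gene with the highest signal, on the plus strand at chr7:140763569-140763818: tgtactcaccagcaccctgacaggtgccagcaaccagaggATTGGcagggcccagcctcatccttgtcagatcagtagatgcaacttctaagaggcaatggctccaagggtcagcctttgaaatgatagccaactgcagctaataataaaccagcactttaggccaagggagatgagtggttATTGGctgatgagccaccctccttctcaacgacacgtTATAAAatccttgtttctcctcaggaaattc
Fos, an immediate early gene with a large spread between mice, on the plus strand at chr12:85473640-85473889: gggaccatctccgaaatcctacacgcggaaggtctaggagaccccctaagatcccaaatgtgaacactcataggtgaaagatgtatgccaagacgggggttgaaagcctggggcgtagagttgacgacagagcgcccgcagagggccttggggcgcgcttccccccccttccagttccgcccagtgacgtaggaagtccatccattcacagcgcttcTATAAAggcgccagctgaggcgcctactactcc
The 4 Serpina1 windows shared unbroken runs of 55 to 115 bases, the longest between Serpina1d and Serpina1e. The CCAAT nearest the start began at position -47 in Serpina1b, -37 in Serpina1d, -48 in Serpina1c and -99 in Serpina1e, and an ATTGG followed it in each. The letters from this CCAAT to that ATTGG were the same in all 4 windows. The Serpina1e window ran further past them, so the positions differ with where the annotated start lies. TATAAA began at -31 in Cyp2e1 and -33 in Fos. Of 32851 RefSeq windows of this length, 33.8% held CCAAT and 12.4% held TATAAA on either strand. A match describes the letters and does not show that a factor binds. Promoter windows were found for 48.0% of the 25 brightest genes, 50.0% of the 100 brightest and 69.8% of all detected genes, so a comparison of promoter features between these sets would be void and was not made.

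The upper end of the signal order was taken by secreted liver proteins and mitochondrially encoded transcripts. Probe signals depend on how well a probe binds, so this is an order of signals and not of transcript amounts. Alb, which encodes serum albumin, a main product of hepatocytes, shows the limit: its 1 probe gave signals of 223, 198 and 202 and stood at 7.07 ± 0.06, at rank 3874 of 9253, where the median of all detected genes was 6.65. The brightest gene was Mup2, a major urinary protein that carries pheromones, with signals of 32095, 29226 and 30111. It was the brightest probe on each array, so quantile normalization gave it the same value, 14.89, in all 3 mice, and its SD carries no information.

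**Figure D1:**
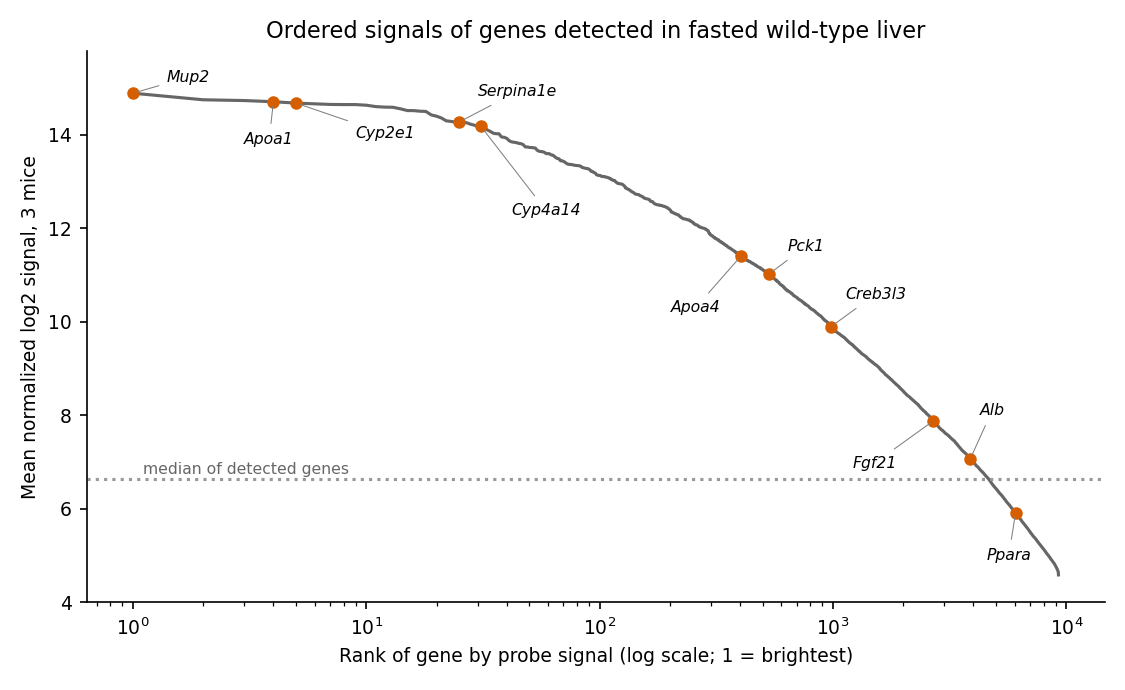
Mean normalized log2 signal of the 9253 genes detected on all 3 arrays against their rank on a log scale, with named genes as points and the median of detected genes as a dotted line. Signals ran from 14.89 for Mup2 to 4.59, and Alb lay above the median of 6.65 at 7.07.

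Plasma carriers and protease inhibitors followed closely. Serpina1b stood at 14.75 ± 0.04, Serpina1d at 14.73 ± 0.05 and Serpina1c at 14.50 ± 0.04. The carriers Ttr (transthyretin, for thyroid hormone) and Trf (transferrin, for iron) stood at 14.65 ± 0.06 and 14.59 ± 0.06, Ahsg (fetuin-A) at 14.51 ± 0.05 and Ambp (the precursor of alpha-1-microglobulin and bikunin) at 14.30 ± 0.09. Apoa1 and Apoa2 encode the main proteins of high-density lipoprotein and stood at 14.71 ± 0.09 and 14.65 ± 0.08. Apoc3, an inhibitor of lipoprotein lipase, stood at 14.56 ± 0.10. Mup3 and Mup1 were at 14.61 ± 0.14 and 14.36 ± 0.03. Probes of the Mup and Serpina1 families may bind transcripts of close paralogs, so values of single members are uncertain. The enzymes among the 25 brightest genes were Cyp2e1, which oxidises ethanol and acetone, at 14.68 ± 0.06 and Mat1a, which makes S-adenosylmethionine, at 14.40 ± 0.14. Fth1, the heavy chain of the iron store ferritin, was at 14.28 ± 0.04. A clone name, 0610040O15Rik, and a provisional name, LOC100044218, also lay among them, at 14.66 and 14.65.

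Names of mitochondrially encoded transcripts held 6 of the 25 highest places and 11 of the 100 highest, with NADH dehydrogenase subunits 1 and 4, cytochrome b and cytochrome oxidase subunit II each there under a pair of names. Those in the first 25 were named for cytochrome oxidase subunit III (14.64), NADH dehydrogenase subunit 1 (14.59), subunit 4 (14.52 and 14.29), cytochrome b (14.52) and ATP synthase subunit 6 (14.43). Of the 100 brightest genes, 48 belonged to at least 1 of 28 lists of liver and housekeeping functions, while 5.72% of all detected genes did. Plasma carriers and inhibitors gave 11 of them, apolipoproteins 6, major urinary proteins 5, cytosolic ribosomal proteins 5 and periportal genes 4. Provisional names starting with LOC or Gm held 14 of the 100 places. The shares of such names and of mitochondrial names among all detected genes were not counted.

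Secreted liver products were detected almost without gaps. All 6 Mup genes on the array were detected, 31 of 32 plasma carriers and inhibitors, 15 of 16 apolipoproteins and assembly factors, 18 of 19 coagulation factors and 18 of 19 complement factors, against 32.0% of all genes. Median signals of the detected members were 14.19 for the Mup genes, 12.55 for apolipoproteins, 12.29 for carriers and inhibitors, 11.32 for coagulation and 10.30 for complement. Kng1 (kininogen) and Fga (fibrinogen alpha chain) led coagulation at 14.15 ± 0.04 and 13.87 ± 0.10. C3, the central complement protein, stood at 13.93 ± 0.10. Acute phase genes, induced in inflammation, had 13 of 17 members detected with a median of 9.36. They were led by Hp (haptoglobin) at 13.96 ± 0.21 and Hamp (the iron hormone hepcidin) at 12.74 ± 0.33. Members detected on no array included Pzp among the inhibitors, Lipc (hepatic lipase) among the lipoprotein genes and C1ra in complement. The coagulation gene at the gap, named for it, was Fgb (fibrinogen beta chain), detected on 1 array.

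**Figure D2:**
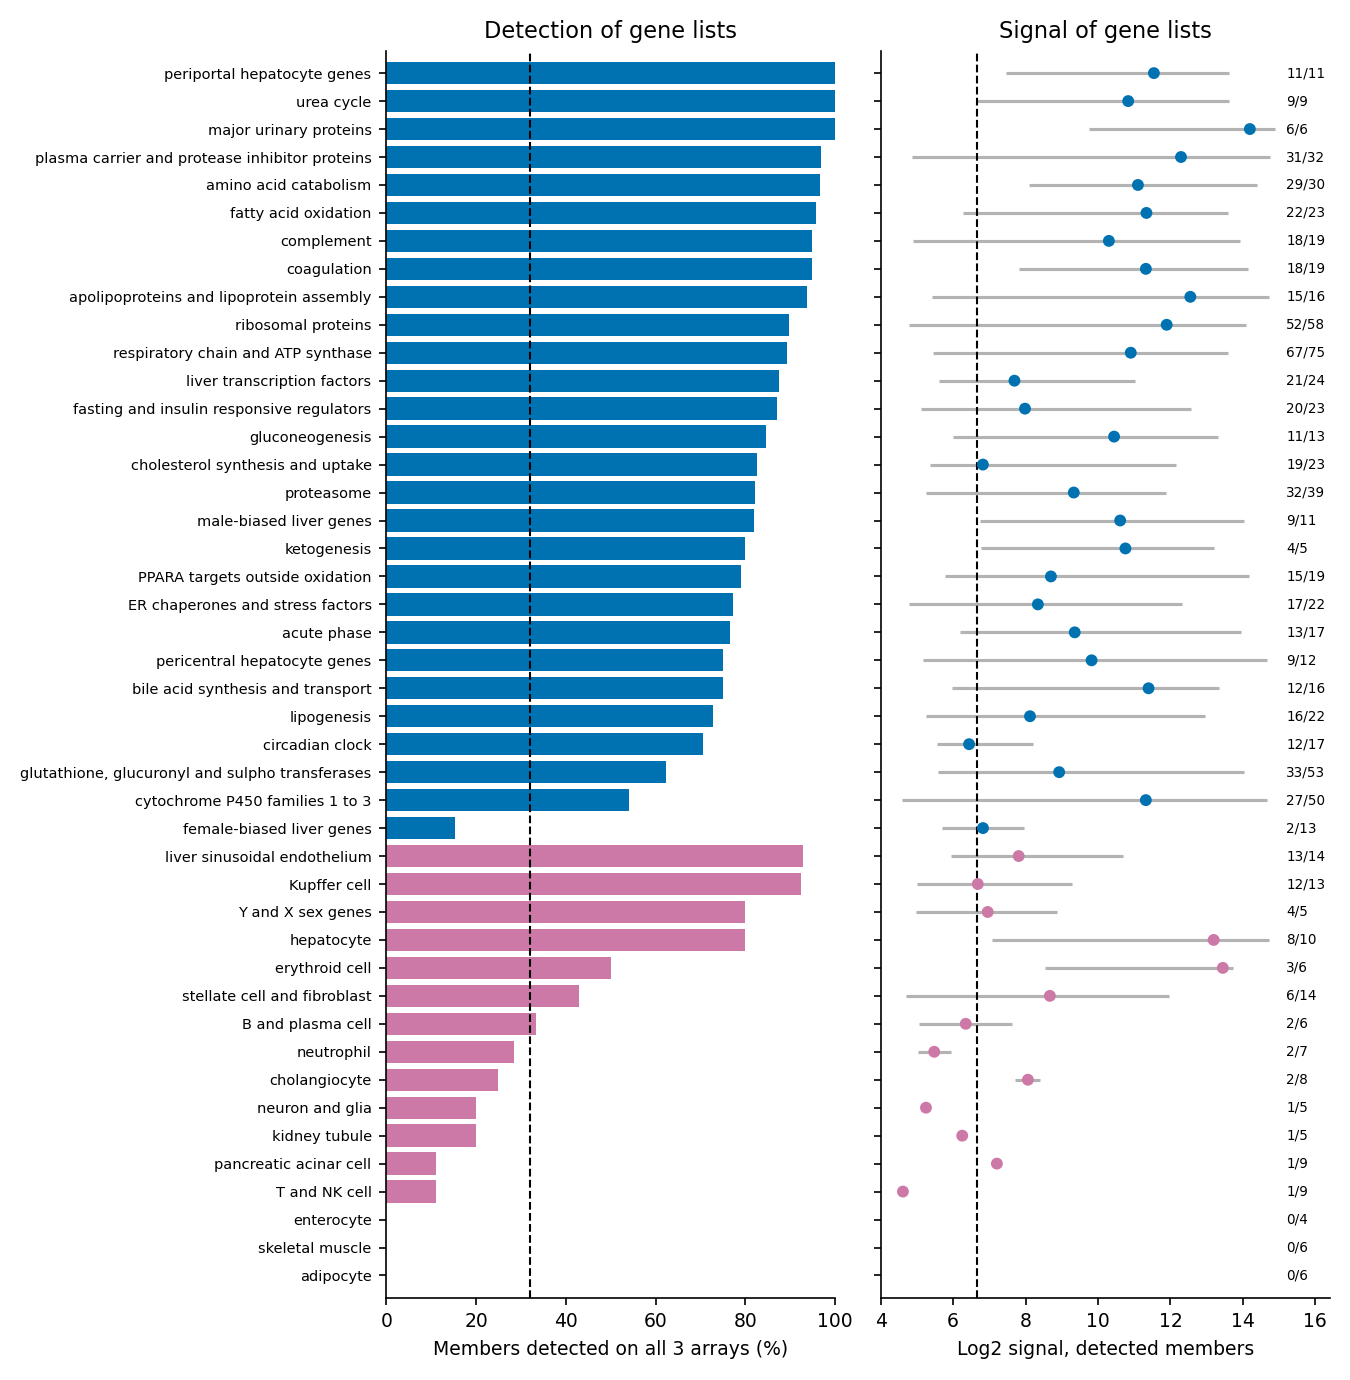
Share of each list's members on the array that were detected on all 3 arrays (left, percent) and the median (point) and range (line) of the log2 signals of those detected (right), with functional lists in blue, cell type and sex lists in pink and all genes as dashed lines. Urea cycle and periportal genes were all detected, whereas 2 of 13 female-biased genes and 0 of 6 adipocyte genes were.

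Genes by which the liver uses fat were among those with high signals. Fatty acid oxidation had 22 of 23 members detected, with a median of 11.34. The peroxisomal thiolases Acaa1b and Acaa1a stood at 13.60 ± 0.19 and 12.20 ± 0.12, the electron carrier subunit Etfa at 12.73 ± 0.05 and the medium-chain dehydrogenase Acadm at 12.65 ± 0.11. Cpt1a, which makes the acylcarnitines that enter mitochondria, was the member without detection, at both of its probes. In ketogenesis 4 of 5 members were detected, among them the dehydrogenase Bdh1 at 9.29 ± 0.18 and the thiolase Acat1 at 6.77 ± 0.33. The ketone exporter Slc16a1 was not detected.

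Of PPARA targets outside oxidation, 15 of 19 were detected with a median of 8.70. The fatty acid omega-hydroxylase Cyp4a14 was the brightest at 14.18 ± 0.15, rank 31, with signals of 18944, 19677 and 18568. Cyp4a31, of the same family, stood at 12.37 ± 0.17, the thioesterase Acot1 at 12.08 ± 0.46 and Angptl4, an inhibitor of lipoprotein lipase, at 10.99 ± 0.09. Fgf21, a fasting hormone, gave signals of 276, 306 and 346 and stood at 7.88 ± 0.41, above the median of detected genes in every mouse. Vnn1 (pantetheinase) was not detected, nor was Fabp1, the liver fatty acid binding protein. Ppara itself stood at 5.91 ± 0.06, rank 6060, and Creb3l3 at 9.89 ± 0.02, rank 978. The normalized values of both factors differed little between the mice, the highest over the lowest being 1.08-fold for Ppara and 1.03-fold for Creb3l3.

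Gluconeogenesis had 11 of 13 members detected with a median of 10.44. The glucose-6-phosphatase G6pc stood at 11.66 ± 0.36, the bisphosphatase Fbp1 at 11.52 ± 0.17 and Pck1, the cytosolic phosphoenolpyruvate carboxykinase, at 11.02 ± 0.14. The mitochondrial form, Pck2, was not detected. All 9 urea cycle genes were detected, with a median of 10.83. Arg1 (arginase) led them at 13.63 ± 0.19, followed by Cps1 (carbamoyl phosphate synthetase) at 13.25 ± 0.25 and Ass1 (argininosuccinate synthetase) at 13.18 ± 0.33. Amino acid catabolism had 29 of 30 members detected with a median of 11.10. After Mat1a its brightest members were Gnmt, which consumes S-adenosylmethionine, at 13.54 ± 0.30, Fah, which ends tyrosine breakdown, at 12.66 ± 0.03 and Ahcy, which splits S-adenosylhomocysteine, at 12.64 ± 0.09. Of zonation markers, all 11 periportal genes were detected with a median of 11.54, and 9 of 12 pericentral genes were, with a median of 9.82.

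Lipogenesis and cholesterol synthesis had lower median signals than gluconeogenesis, the urea cycle and amino acid catabolism. Of 22 lipogenic genes 16 were detected, with a median of 8.12, and of 23 cholesterol genes 19, with a median of 6.82. The elongase Elovl5 and the desaturases Scd1 and Fads1 were the brightest lipogenic genes at 12.95 ± 0.13, 12.13 ± 0.65 and 12.02 ± 0.11. Dgat2, which completes triglycerides, stood at 11.13 ± 0.13. The probes of Acaca (acetyl-CoA carboxylase) and Pnpla3 were detected on no array. Insig2, which retains sterol-regulated factors in the endoplasmic reticulum, was the brightest gene of the cholesterol list at 12.16 ± 0.00, and Ebp, a sterol isomerase, followed at 10.48 ± 0.08. Mvd and Mvk, both of the mevalonate pathway, were not detected. Bile acid genes had 12 of 16 members detected with a median of 11.40. Cyp8b1, which steers synthesis to cholic acid, stood at 13.34 ± 0.11, and the uptake carrier Slco1b2 at 12.73 ± 0.26.

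Enzymes that handle foreign compounds come from large families, of which part gave a signal. Of 50 genes of P450 families 1 to 3, 27 were detected with a median of 11.32, and of 53 glutathione, glucuronyl and sulpho transferases 33, with a median of 8.93. After Cyp2e1 the brightest P450 genes were Cyp2d9 at 13.84 ± 0.17, Cyp3a11 at 13.81 ± 0.13 and Cyp2c50 at 12.96 ± 0.06. Gstp1 led the transferases at 14.02 ± 0.23, followed by Ugt1a10 at 13.28 ± 0.08. Probes of these families may not separate close copies.

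Among regulators, 21 of 24 liver transcription factors were detected with a median of 7.69. Cebpb and Hnf4a, both factors of hepatocyte gene expression, stood at 11.01 ± 0.21 and 10.85 ± 0.10. Xbp1, a factor of the secretory apparatus, stood at 10.26 ± 0.21 and Nr1h4, the bile acid receptor FXR, at 10.19 ± 0.23. Of 23 genes that respond to fasting or insulin, 20 were detected with a median of 7.98, led by the metallothionein Mt1 at 12.57 ± 0.25 and the growth factor binding protein Igfbp2 at 12.35 ± 0.05. Of 17 clock genes 12 were detected, with a median of 6.44. Genes needed in every cell had high signals and, after normalization, a small spread. For 52 of 58 cytosolic ribosomal protein genes the median signal was 11.90 and the median SD 0.0856, and for 67 of 75 nuclear genes of the respiratory chain and ATP synthase 10.90 and 0.0828. The proteasome had 32 of 39 members detected with a median of 9.33. In the list of endoplasmic reticulum chaperones and stress factors, with 17 of 22 detected and a median of 8.34, Herpud1 and the disulphide isomerase P4hb led at 12.31 ± 0.16 and 12.19 ± 0.11, while the chaperone Canx and the stress sensor Atf6 were not detected.

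The labelled tissue and sex were checked against markers. Of 10 hepatocyte markers 8 were detected with a median of 13.19, the exceptions being Fabp1 and the aminotransferase Tat, named for this gap, which was detected on 2 arrays. The Y-linked genes Eif2s3y, Ddx3y, Kdm5d and Uty were all detected, Ddx3y at 8.66 ± 0.25. Xist, expressed from the inactive X chromosome, was detected at none of its 4 probes.

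Other cells of whole liver also gave signals, and in such RNA fewer cells of a type and less RNA per cell cannot be told apart. Of 14 sinusoidal endothelial markers 13 were detected, led by the lectin Clec4g at 10.68 ± 0.09. Of 13 Kupffer cell markers 12 were, led by the complement receptor Vsig4 at 9.28 ± 0.11, with Cd5l not detected. Stellate cell and fibroblast markers were detected for 6 of 14, among them Dcn (the proteoglycan decorin) at 11.96 ± 0.06, while Col1a1 and Lrat, which stores retinol as esters, were not detected. Blood was visible through the globins Hbb-b1 at 13.73 ± 0.14 and Hba-a1 at 13.45 ± 0.18, whose close copies may share probes. Of 8 cholangiocyte markers Spp1 and Sox9 were detected, and the keratins Krt7 and Krt19 were not. Of lymphocyte and neutrophil markers, 1 of 9 was detected for T and NK cells, 2 of 6 for B and plasma cells and 2 of 7 for neutrophils. These shares were 11.1%, 33.3% and 28.6%, against 32.0% of all genes, so the last 2 lie near the share of all genes. Neighbouring tissues gave little. No marker of adipocytes (of 6), skeletal muscle (of 6) or enterocytes (of 4) was detected on all 3 arrays. Pancreatic acinar cells had 1 of 9, Cela1 at 7.21 ± 0.22, kidney tubule 1 of 5 and neurons and glia 1 of 5.

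The 3 livers gave closely similar profiles. Across the 13064 detected probes, which are not independent replicates, Pearson's r was 0.987 between mice 1 and 2, 0.992 between mice 1 and 3 and 0.990 between mice 2 and 3. The median SD of a detected gene was 0.14 log2 units, with 0.05 at the 10th and 0.30 at the 90th percentile. With the genes cut into 4 equal classes by signal, the median SD from the dimmest class to the brightest was 0.17, 0.16, 0.13 and 0.11, and for the 100 brightest it was 0.08. In log2 signals without background correction or normalization the median SD was 0.08 for the 25 brightest genes, 0.15 for the 100 brightest and 0.13 for all, so the small spread of the 100 brightest as a set was not seen there. A range over 2-fold between the highest and the lowest mouse was found for 113 of 9253 genes (1.22%) and for 0 of the 100 brightest.

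**Figure D3:**
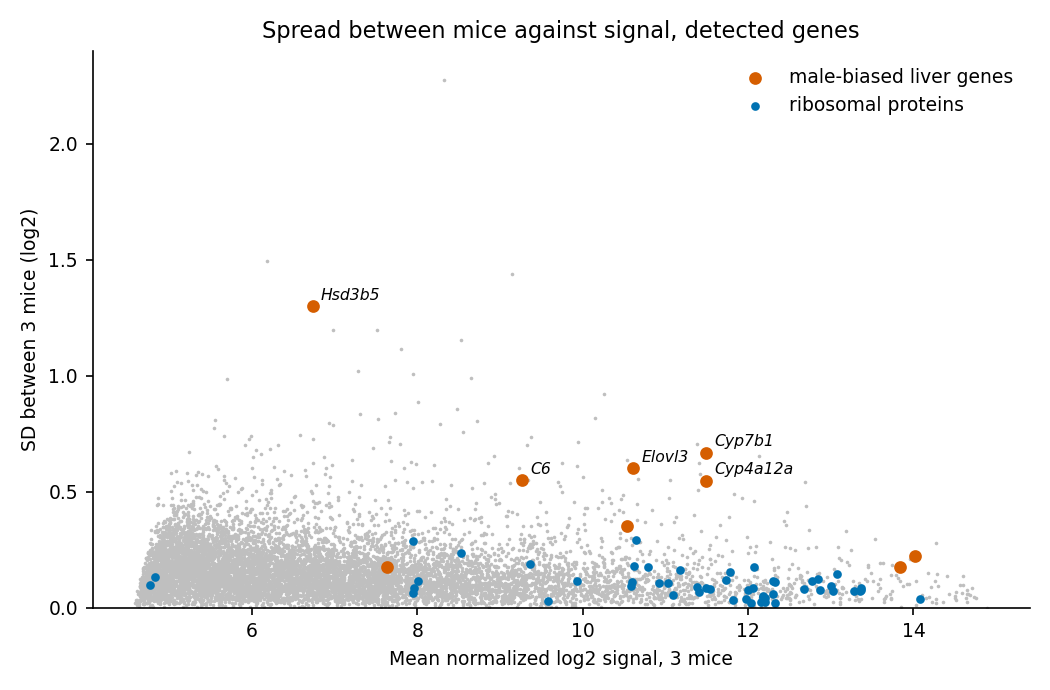
SD over the 3 mice against mean normalized log2 signal, 1 point for each of 9253 detected genes. Ribosomal protein genes (blue) lie near the bottom with a median SD of 0.0856, and the 5 male-biased genes labelled (orange) lie above most genes of like signal.

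Serpina1e was the gene of the 25 brightest that varied most. It gave signals of 25554, 15329 and 19549 and normalized values of 14.54, 13.98 and 14.31, highest in mouse 1 and lowest in mouse 2, a range of 1.47-fold. The deposited signals of its near-copies printed above were 30041, 26539 and 28127 for Serpina1b, 28488, 26385 and 28238 for Serpina1d and 25210, 21478 and 23307 for Serpina1c, also highest in mouse 1 and lowest in mouse 2 but closer together. Their normalized values are held together by quantile normalization near the top of the arrays, so no normalized ranges are set side by side. Serpina1a, at rank 98 and chosen after its values were seen, gave signals of 10628, 8542 and 8122, lowest in mouse 3.

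For genes with a large range, a second probe mostly gave the same highest and lowest mouse. Among 2776 genes with at least 2 detected probes, the mouse with the highest value was the same at the second brightest probe for 47.8%. For the 23 of them with a range over 2-fold it was the same for 20, the lowest mouse was the same for 19, the range was over 2-fold at the second probe too for 12, and across genes the deviations at both probes correlated at r = 0.915. For 616 genes with a range under 1.1-fold the same r was 0.0344, and for all 2776 genes it was 0.397. Both subsets were chosen by the range at the brightest probe. That choice by itself moves r, so nothing is drawn from the difference between them. The probes share an array, so a match between probes describes the RNA hybridised and not the animal. Of the 113 genes, 38 were highest in mouse 1 and lowest in mouse 2, and 32 were the reverse, so that mice 1 and 2 stood farthest apart.

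The 20 genes with the largest SD among those above the median signal fell into several kinds. The largest spread belonged to 6430402L23Rik, a clone name without a function given here. Its values were 5.69, 9.70 and 9.57, a range of 16-fold, and mouse 1 alone stood low. Between mice 2 and 3 the difference was 0.12 on the log2 scale. Rn18s, the 18S ribosomal RNA, which has no long poly(A) tail, had values of 10.61, 7.74 and 9.10. Its other 2 probes gave 8.78, 6.39 and 7.35 and 8.43, 5.53 and 6.03. In each case mouse 1 was highest and mouse 2 lowest.

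Several regulators among the 20 were lowest in mouse 2. Fos, a subunit of AP-1 whose promoter is printed above, had values of 8.06, 5.69 and 7.19, a range of 5.15-fold. On the log2 scale that range was 2.37, and 1.24 to 2.65 over the other settings with all 3 mice. Egr1, a zinc finger factor induced within minutes by many stimuli, had 10.72, 9.19 and 10.85. Gdf15, a cytokine of cell stress, had 7.65, 6.36 and 7.92. In all 3 genes mouse 2 stood lowest, and mice 1 and 3 lay closer to each other than to mouse 2. Bcl6, a transcriptional repressor, had 8.21, 6.76 and 8.22 and Depp1, a target of FOXO factors, 9.57, 7.60 and 8.78. Mouse 2 was lowest in these as well.

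Enzymes and carriers among the 20 differed in which mouse stood out. Mfsd2a, a carrier of lysophosphatidylcholine, had values of 7.65, 9.83 and 8.10. Lpin1, a phosphatidate phosphatase, had 7.89, 8.94 and 7.18 and at its second probe 7.12, 8.53 and 7.02. Slco1a4, an organic anion carrier, had 7.05, 9.08 and 7.28. Each of these was highest in mouse 2. Etnk2, an ethanolamine kinase, had 6.03, 7.53 and 7.24, with mouse 1 low. Abhd1, of the alpha/beta hydrolase fold, had 8.13, 6.13 and 8.28, with mouse 2 low. Acot3, a peroxisomal thioesterase and PPARA target, had 8.12, 8.42 and 9.63, and Socs2, an inhibitor of growth hormone signalling, 7.99, 7.97 and 9.46. These last were highest in mouse 3. Of the others, Serpina12 (vaspin) had 9.07, 7.49 and 8.26, highest in mouse 1 and lowest in mouse 2, and Xlr4a and LOC100047762 had 6.72, 8.47 and 6.68 and 7.16, 8.46 and 6.95, both highest in mouse 2. Lbp, the acute phase protein that binds lipopolysaccharide, had 11.09, 9.62 and 9.74, with mouse 1 high.

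**Figure D4:**
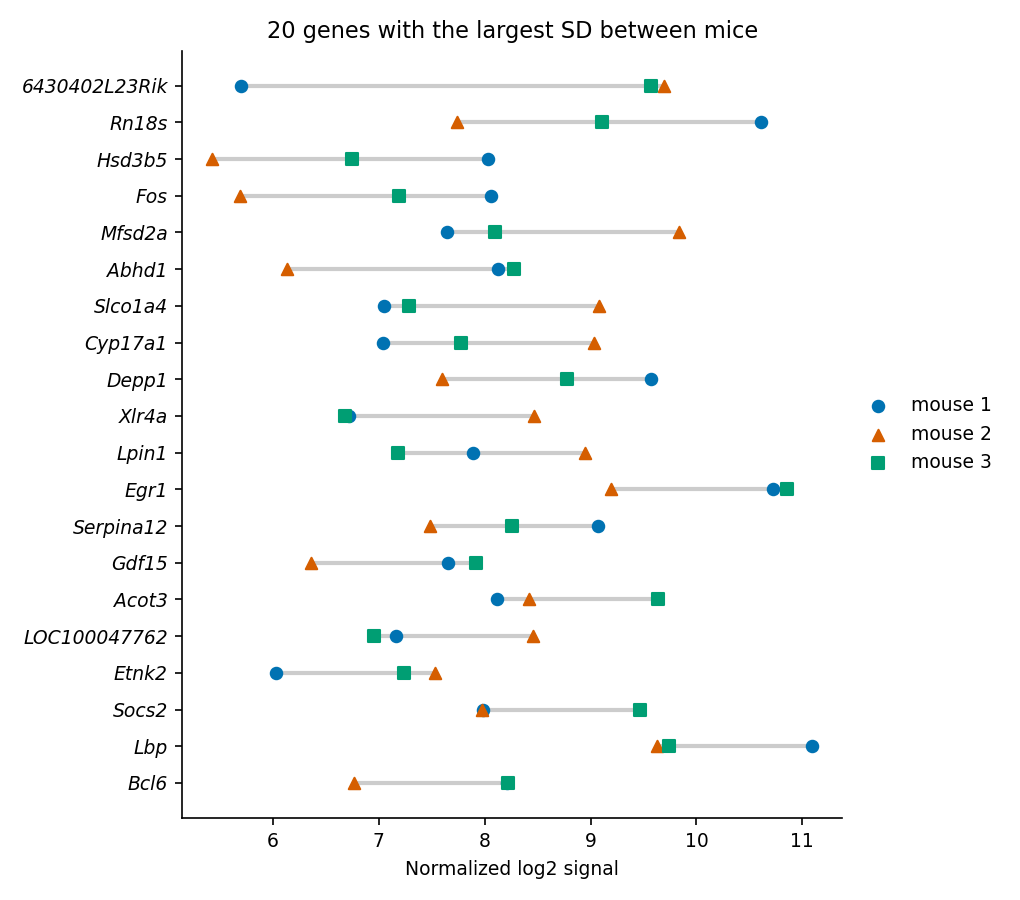
Normalized log2 signals of mouse 1 (circles), mouse 2 (triangles) and mouse 3 (squares) for the 20 genes with the largest SD among detected genes above the median signal, ordered by range, with lines joining the lowest and the highest. 6430402L23Rik spans 16-fold, and mouse 2 is the highest or the lowest mouse for most of the other genes.

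Genes known for higher levels in male than in female mouse liver had the largest median SD among lists with at least 9 detected members. Of 11, 9 were detected, with a median SD of 0.548 against 0.14 for all detected genes, and 5 had a range over 2-fold, where 1.22% of all genes did. Hsd3b5, a steroid dehydrogenase of male liver, had values of 8.03, 5.43 and 6.75, a range of 6.06-fold. On the log2 scale that range was 2.60, and 1.30 to 2.87 over the other settings with all 3 mice. Cyp7b1, the oxysterol hydroxylase, had 12.23, 10.93 and 11.30, and Elovl3, a fatty acid elongase, 11.26, 10.07 and 10.50 with 8.85, 7.87 and 8.20 at its second probe. Cyp4a12a, an omega-hydroxylase, had 11.93, 10.88 and 11.67, and the complement factor C6 9.79, 8.70 and 9.32. All 5 were highest in mouse 1 and lowest in mouse 2. Of the 9 genes, 9 were highest in mouse 1 and 8 lowest in mouse 2, where 36.0% and 38.2% of all detected genes were. Each normalization tried gave the same counts. In unnormalized and median-scaled signals, though, 7595 and 6866 of all 9253 detected genes were highest in mouse 1, so the first count says little there. With the normalization used throughout, the median deviations of the 9 genes from the gene mean were 0.43, -0.54 and 0.01. Gstp1 and Cyp2d9, the brightest of the list, moved less, with values of 14.27, 13.82 and 13.98 and 13.96, 13.64 and 13.92. Slco1a1 and Ugt2b38 were not detected. Elovl3 and C6 were singled out after their values were seen. Of 13 female-biased genes 2 were detected on all 3 arrays and 5 on fewer. The 2 ran the other way: Cyp17a1, the steroid 17-alpha-hydroxylase, had 7.04, 9.03 and 7.78 and Cyp2b9 4.67, 6.63 and 5.79. Cyp2b9 lay near background in mouse 1, with a signal of 101 and a detection p of 0.0224. Rn18s stood in the same order of mice as the male-biased genes, and its part in their spread, and in that of Fos, was not tested.

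**Figure D5:**
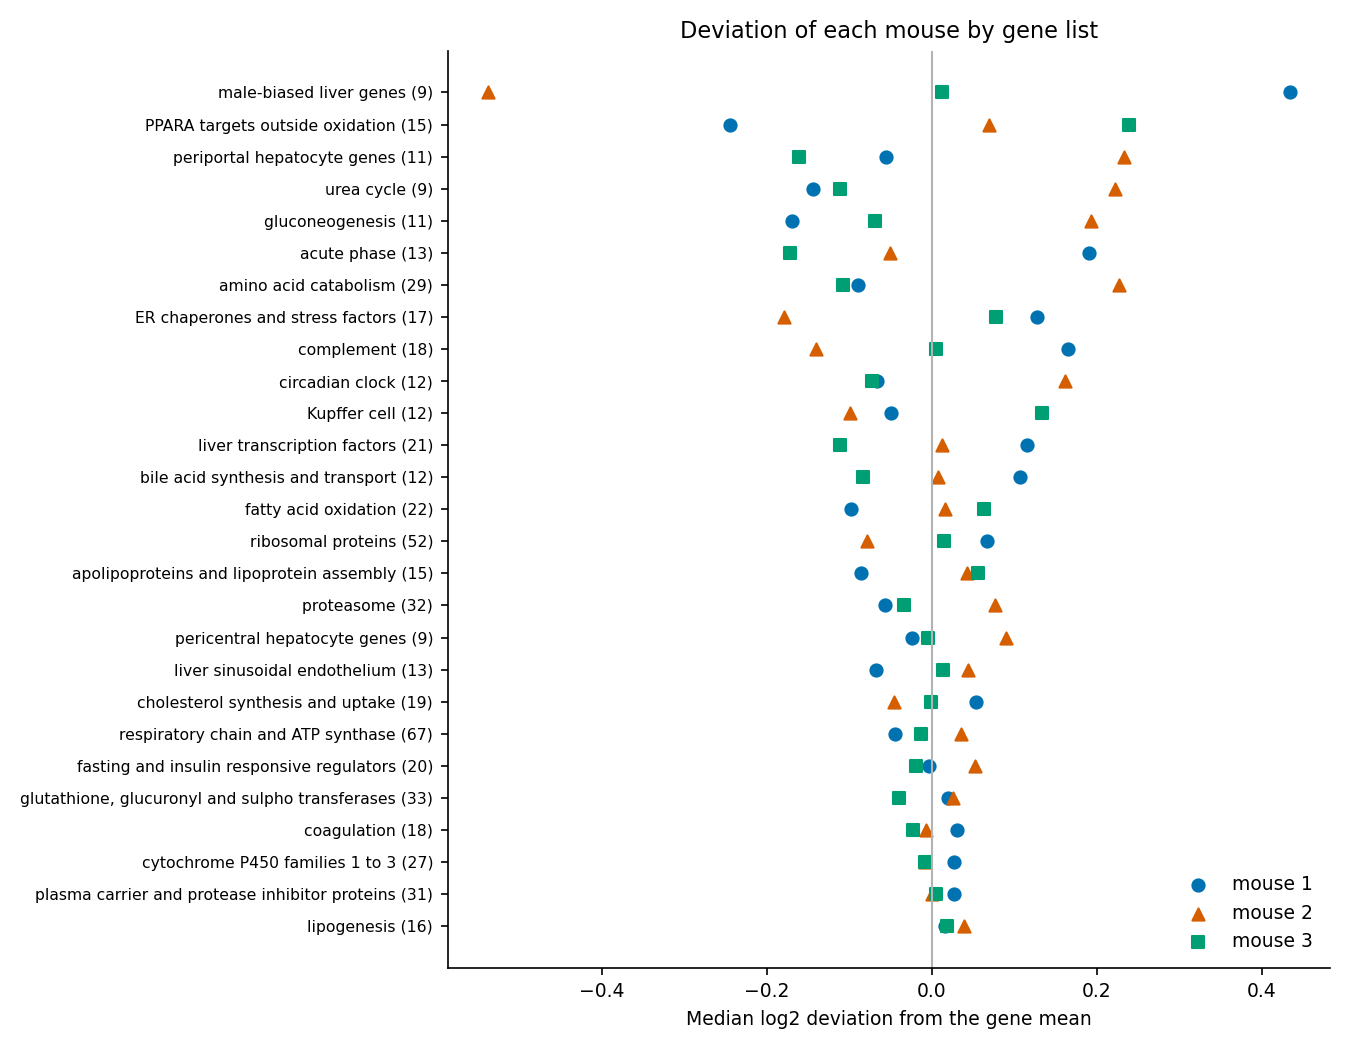
Median log2 deviation from the gene mean in mouse 1 (circles), mouse 2 (triangles) and mouse 3 (squares) over the detected members of each list, with their number in parentheses, ordered by the distance between the mice. Male-biased genes lie at 0.43 in mouse 1 and -0.54 in mouse 2, and amino acid catabolism at 0.23 in mouse 2.

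Amino acid and urea cycle genes were mostly highest in mouse 2. In amino acid catabolism 21 of 29 genes were highest in mouse 2, where 33.4% of all detected genes were, with a median deviation of 0.23. In signals without normalization, where the array of mouse 1 was brighter, 15 still were. Chosen after their values were seen, Hpd, of tyrosine breakdown, had 10.98, 12.07 and 11.21, Cth, which makes cysteine, 10.72, 11.69 and 10.75 and Bhmt, which remethylates homocysteine, 11.45, 12.40 and 11.92. All 3 peaked in mouse 2. In the urea cycle 7 of 9 genes did, among them Ass1 with 12.97, 13.56 and 13.01, and in gluconeogenesis 7 of 11, among them the coactivator Ppargc1a, also chosen after its values were seen, with 5.56, 6.75 and 5.72. Over the other normalizations the count was 5 to 7 in both lists. Of 12 clock genes 9 were highest in mouse 2, or 6 to 9 over the other normalizations, and Per1 and Dbp, again chosen after their values were seen, had 6.24, 7.44 and 6.07 and 6.62, 7.51 and 6.06. The labels give no hour of sampling.

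Complement and acute phase genes were mostly highest in mouse 1. Of 18 complement genes 13 were highest in mouse 1 and 10 lowest in mouse 2, where 36.0% and 38.2% of all detected genes were, among them C9 of the membrane attack complex with 12.08, 11.33 and 11.89. Acute phase genes were highest in mouse 1 for 11 of 13 and lowest in mouse 3 for 8, where 29.8% of all detected genes were lowest in mouse 3. Of the endoplasmic reticulum list 13 of 17 were lowest in mouse 2, where 38.2% of all detected genes were. Ribosomal protein genes were lowest in mouse 2 for 38 of 52, though by little after normalization, as their median SD shows. Without correction or normalization all 52 were highest in mouse 1. Their median deviations were then 0.26, -0.17 and -0.09, against 0.13, -0.06 and -0.06 for all detected genes.

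Among fat genes the order differed. Of PPARA targets outside oxidation 9 of 15 were highest in mouse 3, where 30.5% of all detected genes were, and 10 lowest in mouse 1, where 32.1% were. The first count was 9 under each normalization tried, and the second was 3 in signals without normalization. Cidec, a lipid droplet protein, had values of 6.12, 7.16 and 7.31, a range of 2.28-fold, and Apoa4, an apolipoprotein of triglyceride-rich particles, 10.69, 11.75 and 11.78, a range of 2.14-fold. Both were low in mouse 1, and for Apoa4 its other 2 probes gave 10.36, 11.54 and 11.59 and 10.59, 11.44 and 11.39, also lowest in mouse 1. Fgf21 stood lowest in mouse 1 too, by 1.73-fold. Apoc2, an activator of lipoprotein lipase, at 8.42 ± 0.11, and Pck1, with 10.95, 10.94 and 11.18, varied less. Of 22 fatty acid oxidation genes 15 were highest in mouse 3, a count that rests on the normalization: in signals without normalization 16 were highest in mouse 1, where the whole array was brighter.

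Markers of other cell types also differed between the livers, and their part in the differences above was not tested. Of 12 detected Kupffer cell markers 10 were highest in mouse 3, where 30.5% of all detected genes were. In signals without normalization 1 was, where 673 of all 9253 detected genes were. The summed signals of the 13 on the array were 3808, 3166 and 3484. Such sums are of deposited signals without background correction and include members that were not detected. The 14 endothelial markers summed to 5512, 4763 and 4899, highest in mouse 1 and lowest in mouse 2, as were the sums over all genes. After normalization 6 of the 13 detected were lowest in mouse 1, where 32.1% of all detected genes were. Of the same 13, 6 were highest in mouse 2 and 6 in mouse 3. Their median deviations were -0.07, 0.04 and 0.01. The 8 cholangiocyte markers, of which 5 were detected on no array, summed to 1448, 1054 and 1280. Both detected members were lowest in mouse 2 with and without normalization, where 38.2% of all detected genes were after normalization. Erythroid markers summed to 26461, 27140 and 22965, highest in mouse 2.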

How the data were processed

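Liver RNA extracted with Trizol and a spin column was made into biotinylated cRNA and hybridised to 1 array per mouse, per the labels' protocols. The per-array values used here are deposited probe intensity values, neither background-corrected nor normalized per the file headers, with a detection p-value for each probe given by the authors' software, BeadStudio 3, per the submitters' processing notes. The authors' table of normalized intensity values was used as an alternative, with its columns matched to arrays by their values. Control bead data were not used here, and slide positions are not given in the sources used here.

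The 3 arrays were processed together with limma 3.58.1 in R 4.3.3 (function neqc, which estimates background by normexp from the detection p-values, adds an offset of 16, equalises quantiles and takes log2), and summarised with Python 3.11.15 and pandas 2.3.3. Genes detected (p under 0.05) on all 3 arrays entered the order and the spread. Gene names of 8037 probes were updated through the RefSeq gene table of GRCm38.p6, 27740 were current and 9504 were unmatched and kept. There is 1 group, so no test was made. The computation of the spread was tested on simulated data. Members and gene lists were chosen with earlier results of these data known. Genes were named by rule: the 25 highest signals, the 20 largest SDs above the median signal, up to 4 brightest and 2 undetected members of each list, and a fixed set of fasting, lipid and sex genes. Other genes are marked as chosen after their values were seen. Some items are not reported here.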

Additional observations from a re-analysis of the deposited data

How the results depend on the processing

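No paired analysis was possible because 1 group was described and no groups were compared. The number of genes with a range over 2-fold was 113, and it was 68 in log2 signals without correction, 38 with quantile normalization without background correction and 32 in the authors' table, while median scaling, cyclic loess and normalization with all 6 arrays gave 166, 112 and 82. Leaving out 1 mouse gave 27 to 88 such genes: 44 without mouse 1, 27 without mouse 2 and 88 without mouse 3, where a range over fewer mice is smaller by construction. Of the 20 most variable genes, 11 remained in log2 signals without correction and 7 to 15 when a mouse was left out, 13 without mouse 1, 7 without mouse 2 and 15 without mouse 3. Without mouse 1 the range of 6430402L23Rik fell to 0.12 on the log2 scale. Detected genes numbered 8427 at p under 0.01 and 13670 when 1 array sufficed. At least 23 of the 25 and 85 of the 100 brightest genes were shared with each other setting tried. The direction of some lists reversed with the scaling: the median deviation of fatty acid oxidation genes in mouse 1 went from -0.10 to 0.12 without correction, that of the proteasome from -0.06 to 0.16, and Kupffer markers highest in mouse 3 went from 10 to 1. Unnormalized and median-scaled signals left mouse 1 above the mean of the 3 mice by a median of 0.13 and 0.18 log2 units. There 7595 and 6866 of 9253 genes were highest in mouse 1, so counts of genes highest in a mouse follow the scaling. Amino acid catabolism then had as few as 15 genes highest in mouse 2, periportal genes 4 and the proteasome 4, against 21, 9 and 24. The male-biased counts did not change. Signals near background limit the dimmest genes.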
